A study of Bos taurus with 2 samples.

Results

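The 935 stretches of the sperm genome described here were 1 kb windows of the autosomes in which the methylation level of Bull1 exceeded that of Bull2 by more than 25 percentage points. They were chosen by that difference from 1856975 eligible windows and made up 0.0504% of them. A window was eligible when it held at least 5 CpGs read at least 5 times in both libraries, with a mean coverage of at most 100 reads per CpG in each. Its level pooled those CpGs, as their methylated reads divided by their total reads. Bull1 and Bull2 are a pair of monozygotic twin Holstein bulls whose semen was taken at 72 months of age and frozen, and whose sperm DNA was read by whole-genome bisulfite sequencing (WGBS), which shows unmethylated cytosines as thymines. The bulls share their genotype, no treatment of them is described, and the study compared them because their semen quality differed. Each bull gave 1 library, so the spread between replicates is unknown, and every difference below is one between these libraries rather than between fertility classes. The sperm label could not be checked against marker genes, because methylation counts hold no expression. Bull1 and Bull2 are the names under which the libraries were deposited. The assignment of the deposited files to the bulls is in doubt and was not settled here, so every direction below, that of INSL3 included, is one between libraries of those names and would turn if the names were exchanged.

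In mammals DNA methylation sits mainly on the cytosine of CpG dinucleotides, and most of the sperm genome carries it. CpG islands, stretches dense in CpGs that often overlap promoters and first exons, usually stay free of methylation in sperm.

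All autosomes together had 529419406 reads at CpGs in Bull1 and 485938926 in Bull2, a mean of 20.3 and 18.7 reads per listed CpG, with levels of 75.0% and 70.8%. Bull1 was the higher library in 80.1% of eligible windows, and the median difference over all of them was 3.92 points, with 1st and 99th percentiles of -8.61 and 16.4. Only 112 windows lay more than 25 points the other way. When the limit was set 25 points from that median in both directions, 282 windows passed it upwards and 355 downwards. These counts do not compare the directions on equal terms. A window near full methylation in Bull2 could not pass upwards, and 86.4% of eligible windows had 70% or more in Bull2. The median difference also varied with level, from 0.171 points where Bull2 was under 5% to 5.04 where it was 50 to under 70%.

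The selected windows were mostly of intermediate methylation in Bull2. Their median level was 80.1% in Bull1 and 52.0% in Bull2, against 88.7% and 84.1% over all eligible windows. Of the 935, Bull2 stood between 20 and 50% in 333 and between 50 and 70% in 459. Such levels were found in 3.35% and 7.54% of eligible windows. A window within 25 points of full methylation in Bull2 could not be selected. The contrast with all eligible windows is thus in large part set by the rule. At the methylated end, 53 windows (5.67%) had 70% or more in Bull2, against 86.4% of eligible windows. At the unmethylated end, 44 (4.71%) were below 5% in Bull2 and 46 (4.92%) between 5 and 20%. These levels were found in 1.40% and 1.31% of eligible windows. The difference itself had a median of 27.3 points. It lay between 25 and 30 points in 727 windows, above 30 in 208, above 40 in 22 and above 50 in 6.

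**Figure D1:**
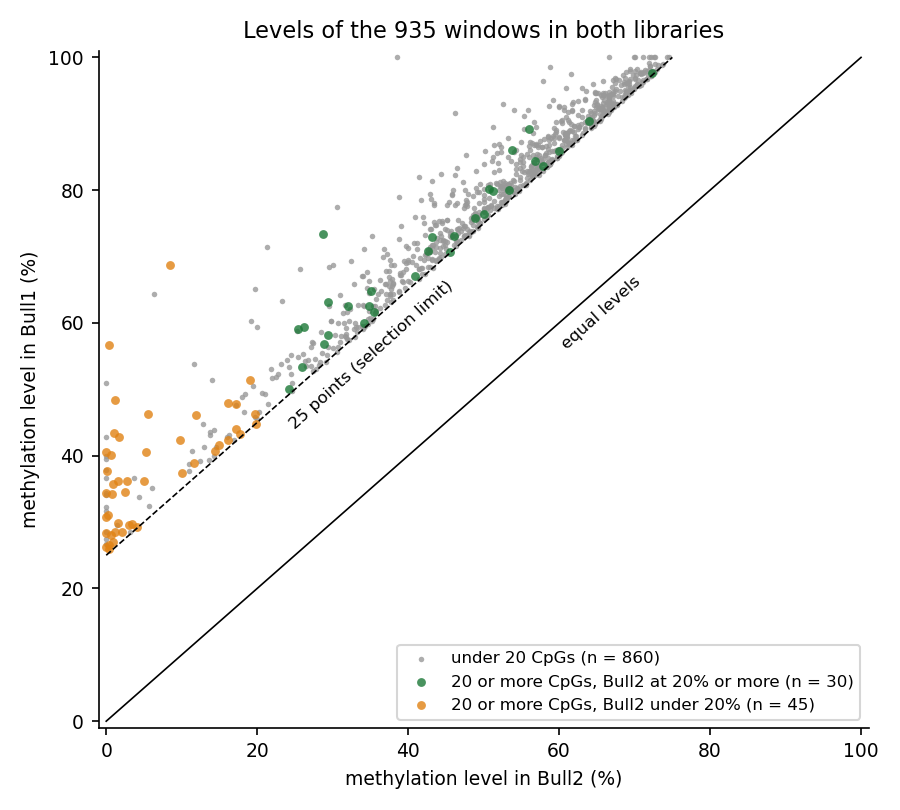
Methylation level of each of the 935 windows in Bull2 (x axis, %) and Bull1 (y axis, %), 1 point per window, with lines for equal levels and for the 25-point selection limit. Most points lie close above the limit, and the windows with 20 or more CpGs split into 45 with Bull2 under 20% and 30 with Bull2 at 20% or more.

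The windows just inside the limit were chr1:12365001-12366000, chr5:67013001-67014000 and chr9:66465001-66466000, each at 25.01 points. Just outside it, chr6:9864001-9865000, chr13:8525001-8526000 and chr13:25364001-25365000 were at 25 points. The count of 935 is tied to where the limit was put.

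The selected windows were shallower than the rest. Their median coverage was 15.7 reads per used CpG in Bull1 and 12.7 in Bull2, against 21.4 and 18.5 over all eligible windows. In 329 of them, or 35.2%, the mean coverage was under 10 reads in at least 1 library, compared with 7.59% of eligible windows. The 112 windows over 25 points higher in Bull2 were shallower still, with medians of 11.8 and 9.06 reads and 69 of them, or 61.6%, under 10 reads in a library. The share of eligible windows that were selected was 0.233% (exact 95% interval 0.209 to 0.260%) where the lower coverage of the pair was under 10 reads and 0.00975% (0.00757 to 0.0124%) where it was 20 or more. By the reads summed over a window in the shallower library, the share went from 1.15% at 25 to under 50 reads to 0.0116% at 200 to under 400, and it was 0.0223% at 400 or more. These intervals cover counting error only, and reads of neighbouring CpGs are not independent, because a read or read pair counts once at every CpG it covers.

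By the number of CpGs the share fell and then rose. Windows with the minimum of 5 used CpGs held 292 of the 935, a share of 0.137% of their class, and the share was lowest, 0.0185%, in windows of 11 to 19 CpGs. It was 0.0393% (0.0309 to 0.0492%) in windows of 20 or more, where 75 were selected, above the interval of 0.0152 to 0.0224% at 11 to 19. Eligible windows of 20 or more CpGs were also shallower, with median coverage of 13.9 reads in Bull1 and 12.7 in Bull2. At 11 to 19 CpGs the medians were 20.1 and 17.1. Of the 75, 17 had a mean of 10 or more reads per CpG in both libraries. The part of depth in this rise was not tested.

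**Figure D2:**
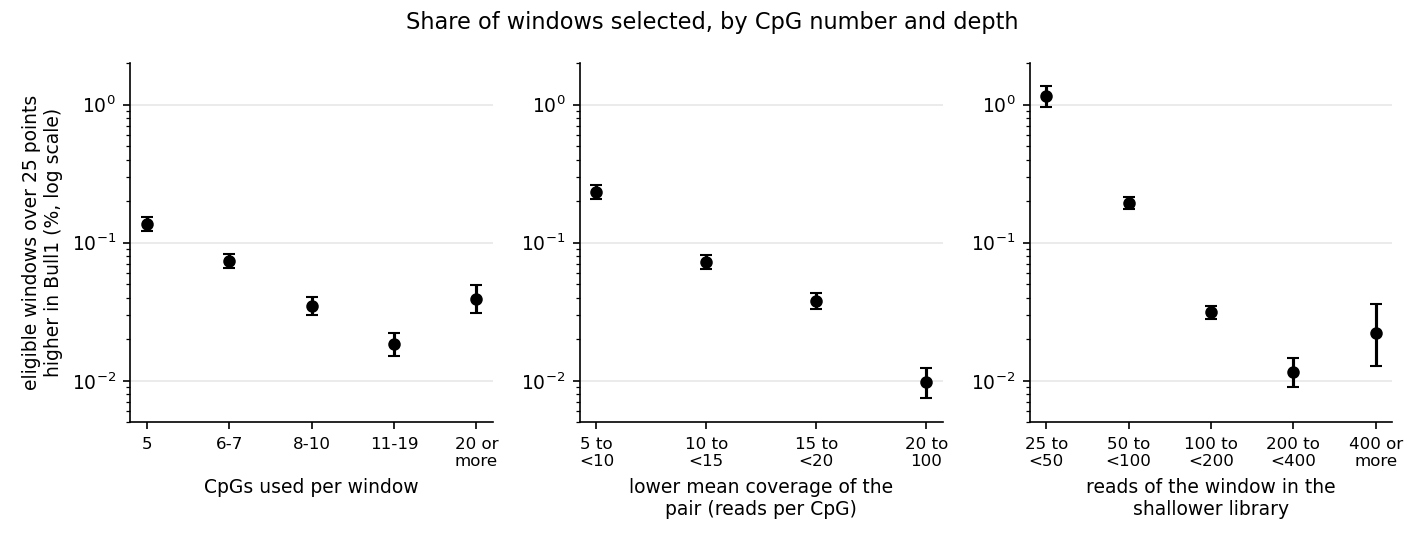
Percent of eligible windows that were over 25 points higher in Bull1 (log scale), by used CpGs, by the lower mean coverage of the libraries and by the reads of the window in the shallower library, with exact 95% intervals. The share is highest in shallow windows and windows of few CpGs, and in the CpG panel it is higher at 20 or more CpGs than at 11 to 19.

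Because a window's level pools reads, a CpG that is read more often counts for more, and CpGs of a window can be read unequally in the 2 libraries. When every used CpG was given equal weight, 453 of the 935 windows, or 48.4%, still differed by more than 25 points. The median difference was then 24.8 points, 135 windows were at 10 points or less, and 5 were higher in Bull2. The CpGs of the selected windows were unlike each other. The gap between the most and the least methylated CpG of a window had a median of 51.4 points in Bull1 and 59.5 in Bull2, against medians of 25 and 31.2 over all eligible windows.

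The window at chr1:103218001-103219000 is an example. Its pooled levels were 71.4% in Bull1 and 21.4% in Bull2, a difference of 50.1 points at 22.4 and 20.6 reads per CpG, the largest among windows with at least 10 reads in both. With equal weights the levels were 53.9% and 43.7%, and the difference was 10.2 points. At its 5 used CpGs, Bull1 had 15, 0, 0, 33 and 32 methylated reads of 18, 15, 9, 37 and 33, and Bull2 had 10, 0, 0, 6 and 6 of 13, 36, 37, 8 and 9. The same pair of CpGs was unmethylated in both bulls, and Bull2 had most of its reads there. Only 2 of the CpGs had 10 or more reads in both libraries, and their pooled difference was 25.05 points. CpG by CpG the bulls were closer. At the first, 15 of 18 reads were methylated in Bull1 and 10 of 13 in Bull2. At the other, 0 of 15 and 0 of 36 were. With equal weights, chr11:10981001-10982000 went from 40.3 points to 6.85, with 2 of 5 CpGs higher in Bull1, and chr5:67013001-67014000 from 25.01 to 4.43.

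**Figure D3:**
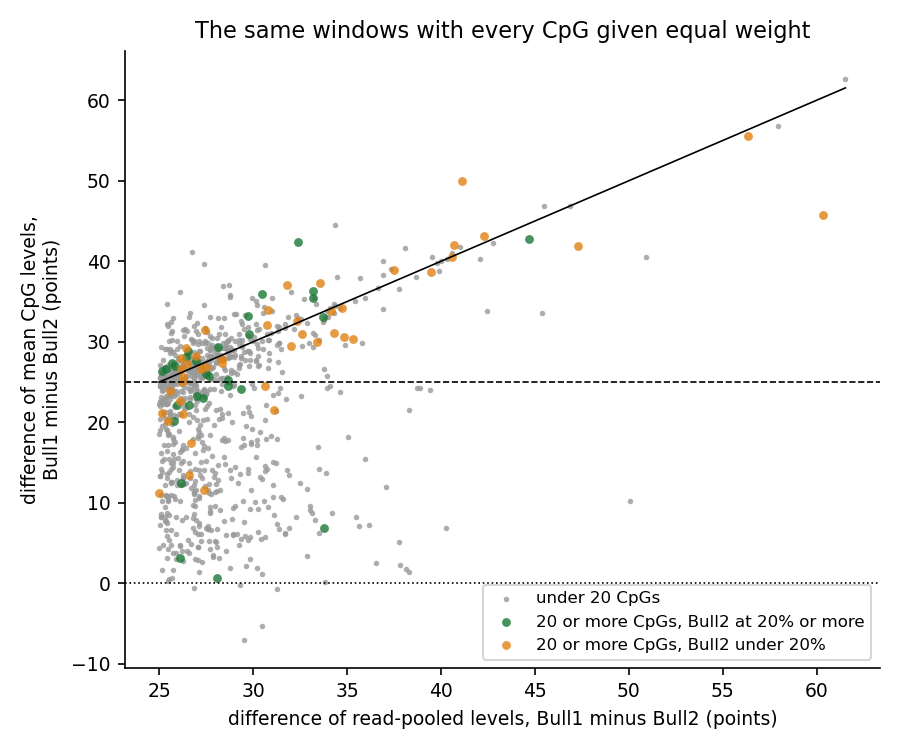
Difference between Bull1 and Bull2 in each window with reads pooled (x axis, points) and with every used CpG weighted equally (y axis, points), 1 point per window, with a line of equality, a dashed line at 25 points and a dotted line at 0. The cloud of windows with under 20 CpGs reaches past 0, down to -7.01, and 453 of 935 windows stay above the dashed line.

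Requirements were then stacked to see how many windows met all of them, as a description made after the values were seen. A mean of 10 or more reads per CpG in each library left 606 windows, a depth ratio between 0.5 and 2 left 581, an equal-weight difference above 25 points left 212, and a higher level in Bull1 at every used CpG left 151. Those 151 had medians of 6 CpGs, 90.2% in Bull1 and 62.0% in Bull2, and 1 of them had 20 or more CpGs. Taken alone, the equal-weight requirement was met by 0.0451% of all eligible windows and the one on every used CpG by 4.51%. The full stack was not counted over all eligible windows. These last requirements use the reads that chose the windows, so the 151 are not a tested set.

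Among windows with at least 10 reads in both libraries, several others with the largest pooled differences stayed above 25 points with equal weights. At chr2:43530001-43531000 the pooled difference was 42.4 points, with a level of 68.1% (154 of 226 reads) in Bull1 and 25.7% (37 of 144) in Bull2. All 13 CpGs were higher in Bull1, and the equal-weight difference was 33.8 points. At chr5:59130001-59131000 nearly every Bull1 read was methylated, 68 of 69, against 47 of 80 in Bull2, and the differences were 39.8 points by both averages. At chr10:74740001-74741000 the levels were 96.5% and 57.8%, with all 7 CpGs higher in Bull1. At chr7:11570001-11571000 they were 63.2% and 23.3%, again with all 5 CpGs higher. The other 4 of these 10 windows, chr13:6378001-6379000, chr18:52698001-52699000, chr22:12791001-12792000 and chr26:43284001-43285000, had pooled differences of 38.3 to 39.4 points and equal-weight differences of 21.5 to 24.3. Over CpGs with 10 or more reads in both libraries, the difference was 46.0 points at chr2:43530001-43531000 (8 CpGs) and 39.8 at chr5:59130001-59131000 (5 CpGs). It was 39.8 at chr10:74740001-74741000 (5 CpGs), 39.6 at chr7:11570001-11571000 (3 CpGs) and 33.3 at chr26:43284001-43285000 (3 CpGs). It dropped to 6.87 points at chr11:10981001-10982000 (2 CpGs), 10.4 at chr13:6378001-6379000 (1 CpG), 15.8 at chr18:52698001-52699000 (4 CpGs) and 11.5 at chr22:12791001-12792000 (2 CpGs). The cause of these drops was not tested.

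Without a depth requirement the largest difference was at chr16:37790001-37791000, where all 59 reads of Bull1 were methylated and 10 of 26 reads of Bull2, which is 61.5 points. Bull2 had 5.20 reads per CpG there and Bull1 11.8. At chr28:34904001-34905000 the level was 64.3% (63 of 98 reads) against 6.35% (4 of 63), and at chr18:58234001-58235000 it was 50.9% (84 of 165) against 0 of 78, which allows up to 4.62% by the exact interval. These windows were deeper in Bull1, by ratios of 2.27, 1.56 and 2.12. The ratio of coverage exceeded 2 in 48 of the 935 windows, or 5.13%, and in 0.679% of eligible windows. It was under 0.5 in 1.28% of the 935 and in 0.158% of eligible windows.

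Exact 95% intervals of the pooled levels did not overlap in 879 of the 935, but this used the rule's own reads and held for 9.39% of all eligible windows in the direction of Bull1. When the number of molecules was taken as the mean coverage, that is 1 CpG's worth of reads, the intervals were apart in 3 of the 935 and in 0.000215% of eligible windows, or 4 windows. The 3 were chr1:103218001-103219000, chr12:16801001-16802000 and chr18:58243001-58244000. At chr12:16801001-16802000 the level was 47.7% (103 of 216 reads) in Bull1 and 17.2% (91 of 529) in Bull2, with 3 of 7 CpGs higher in Bull1, and the difference of 30.5 points was 1.12 with equal weights. At chr18:58243001-58244000 it was 40.6% (320 of 789) against 5.25% (107 of 2039), with 36 of 38 CpGs higher and an equal-weight difference of 30.3 points, and here Bull2 was the deeper library, at 53.7 reads per CpG against 20.8.

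At the level of single CpGs the selected windows held 15974 listed CpGs, of which 9015 had at least 5 reads in both libraries. Of these, 83.1% were higher in Bull1 and 7.24% lower, against 57.1% and 32.4% of the used CpGs of all eligible windows. A two-sided Fisher exact test at an unadjusted p of at most 0.05 was passed with a higher level in Bull1 by 1877 CpGs, or 20.8%. The share was 2.49% of the used CpGs of all eligible windows and 2.57% of all autosomal CpGs tested. In the other direction the test was passed by 1 CpG, against 66883 of the 21236424 used CpGs of all eligible windows. The windows were chosen on these same reads, so the shares describe them and test nothing. In 349 windows, or 37.3%, all used CpGs were higher in Bull1, as in 4.51% of all eligible windows. In 296 windows, or 31.7%, no single CpG passed that p in this direction, as in 77.5% of all eligible windows.

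After Benjamini-Hochberg adjustment over all autosomal CpGs, 81 CpGs, or 0.000351%, passed, and 3 of them lay in the selected windows. One was at position 58243410 of chromosome 18, with 13 of 27 reads methylated in Bull1 and 1 of 70 in Bull2 (Fisher's exact test, adjusted p = 0.0199). The other 2 were in GFAP on chromosome 19, at positions 45246191 and 45246201, with 43 of 49 and 43 of 48 reads methylated in Bull1 and 0 of 10 at both in Bull2 (Fisher's exact test, adjusted p = 0.0393 and 0.0218).

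A measure that the selection did not use came from the CpGs passed over because a library had fewer than 5 reads. They were 43.6% of the CpGs listed in the selected windows, against 10.1% in all eligible windows. Pooled, they were methylated at 42.1% in Bull1 and 23.0% in Bull2, a difference of 19.1 points, compared with 7.31 points at such CpGs of all eligible windows. They are not fully separate data, since a fragment may have covered used and unused CpGs of the same window.

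Sequence farther away was a second such measure. The flanks from 0.3 to 1.3 kb on both sides lie beyond the length of a library fragment, and 881 of the 935 windows had at least 5 usable CpGs there. Their flanks differed by a median of 4.32 points, with quartiles of 1.25 and 7.26, against 4.01, with quartiles of 1.56 and 6.45, around all eligible windows. Flanks were over 10 points higher in Bull1 at 95 windows, or 10.8%, against 6.05% of all, and lower in Bull1 at 17.8% against 14.0%, so both tails held more of them. The flank of 1 window exceeded 25 points.

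**Figure D4:**
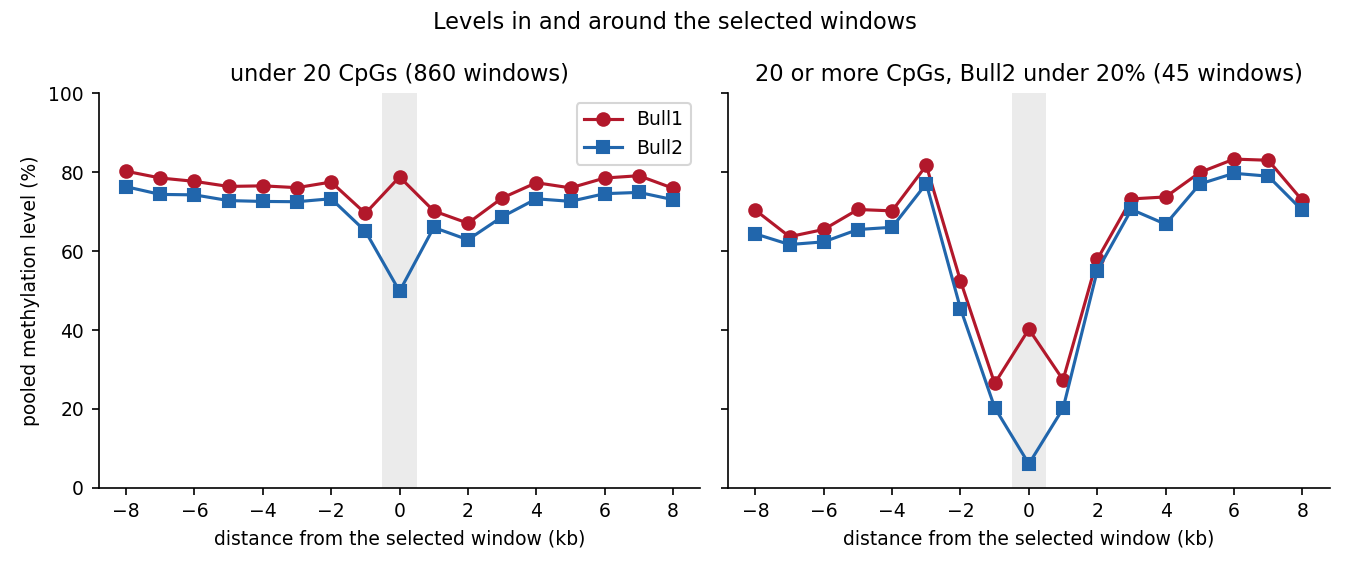
Pooled methylation level (y axis, %) of Bull1 and Bull2 in 1 kb bins from -8 to 8 kb around the selected windows, for the 860 windows with under 20 CpGs and the 45 windows with 20 or more CpGs and Bull2 under 20%. At the window the pooled level of Bull1 is above and that of Bull2 below the next kb on either side in both groups, and the second group lies in a trough that both bulls share.

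Windows with under 20 CpGs pooled to 78.8% in Bull1 and 49.8% in Bull2. In the kb before and after them the levels were 69.6% and 65.1%, and 70.2% and 66.0%. With reads pooled, Bull1 was thus above the adjacent kb and Bull2 below it. Set against its own adjacent kb on both sides, the window was higher in Bull1 in 517 of 818 cases (63.2%), with a median difference of 3.41 points, and in Bull2 in 75 (9.17%), with a median of -19.7. Over all eligible windows the shares were 52.8% and 52.3%, with medians of 0.402 and 0.387 points. The median level of these 818 windows in Bull1, 81.6%, was nevertheless not above that of their adjacent kb, 82.1%. The 45 windows with 20 or more CpGs and Bull2 under 20% pooled to 40.2% in Bull1 and 6.07% in Bull2, in a trough where the next kb on each side stood at 26.5% and 20.4%, and at 27.4% and 20.1%. Bull1 was above its own adjacent kb in 24 of these 45 (53.3%) and Bull2 in 6 (13.3%). The shares were 8.39% and 7.71% over all eligible windows with 20 or more CpGs and Bull2 under 20%, and 52.8% and 52.3% over all eligible windows. The limits of 20 CpGs and 20% were set after the values were seen. The rule chose on the window levels of both bulls, so their direction against the adjacent kb is not free of the selection. Only the levels on either side were not used by the rule.

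Of neighbouring selected windows, 6 pairs lay within 2 kb of each other, 13 within 10 kb and 58 within 100 kb, and no chain of windows within 2 kb was longer than 2. The numbers that the density of windows alone would give were not computed, so these counts do not show whether the windows group. The 6 pairs were on chromosome 11 (chr11:78465001-78466000 with the next window), chromosome 15 (chr15:66929001-66930000 with the next), chromosome 19 (chr19:45294001-45295000 with the next), 2 on chromosome 20 (from chr20:50379001-50380000 and from chr20:61365001-61366000) and chromosome 21 (from chr21:39610001-39611000). On chromosome 20, the pair at 50379001 and 50381001 had levels of 93.7% and 79.4% in Bull1 against 63.5% and 48.0% in Bull2, with every used CpG higher in Bull1. On chromosome 15 the levels were 37.8% and 40.1% against 0 of 164 reads (at most 2.22% by the exact interval) and 0.627%. The share of windows selected was highest on chromosome 20, 38 windows or 0.0730% (0.0516 to 0.100%), and lowest on chromosome 22, 16 windows or 0.0318% (0.0182 to 0.0517%). The intervals of these extremes overlapped, but that of chromosome 5, with 60 windows or 0.0681% (0.0520 to 0.0877%), lay above that of chromosome 22. These are 2 of 29 chromosomes picked after their shares were seen, and no test was made.

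Within 1 Mb, 5 or more selected windows were found in 3 places, which were picked after the values were seen. On chromosome 8, 8 windows lay between 108195001 and 108942000, which is 0.942% of the eligible windows of that Mb. Their median levels were 82.2% and 53.4% at 16.1 and 11.8 reads per CpG, over a median of 13.5 CpGs. All 849 eligible windows of that Mb had a median difference of 6.26 points and a median coverage of 21.9 and 18.7 reads, and none was over 25 points higher in Bull2. On chromosome 12, 5 windows lay between 75113001 and 75853000 (1.07% of 468 eligible windows), with medians of 69.9% and 41.7%, and the median level of the whole Mb was 65.7% and 60.4%. On chromosome 17, 5 lay between 51822001 and 51932000 (0.646%), with medians of 68.8% and 37.7% at 9.60 and 10.5 reads per CpG, and 1 eligible window of that Mb went the other way. The part of depth in these groups was not tested.

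Windows with 20 or more CpGs made up most of those with a gene name. Names came from the study's own annotation of its regions on build UMD3.1, which were picked from these same libraries, so a name here is no independent evidence, and other windows may overlap genes too. It gave symbols for 30 of the 935 windows, 25 of them with 20 or more CpGs. The element given is that of the study's region within the window. These windows were chosen for naming after their values were seen.

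Among the 45 CpG-rich windows with Bull2 under 20%, the medians were 37.7% in Bull1 and 2.50% in Bull2 over 38 CpGs, with 8.33 and 8.07 reads per CpG. In 39 of them, or 86.7%, the coverage was under 10 reads in at least 1 library, against 50.4% of all eligible windows of 20 or more CpGs with Bull2 under 20%. The depth ratio of the libraries had a median of 1.08, near that of all such eligible windows, 1.07. Of their adjacent used CpGs within 20 bp, 39.9% had identical counts in Bull1, against 38.2% in all eligible windows of that class and 16.1% in all eligible windows. Among windows with under 10 reads in a library, the share was 41.8% in the selected windows of the class and 48.5% in all eligible ones. Their unused CpGs pooled to 29.5% in Bull1 and 1.69% in Bull2, against 3.30% and 2.01% in all eligible windows of that class. In Bull2, 11 of these windows had low flanks (under 30%) on both sides, 9 had high flanks (70% or more) on both, 5 had 1 of each, and the rest were in between or not covered. Low flanks on both sides were found in 24.4% of the 45, against 20.1% of all eligible windows of that class and 0.772% of all eligible windows. High flanks on both were found in 20%, against 12.6% and 66.8%, and 1 of each in 11.1%, against 29.3% and 3.66%.

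HNRNPA0, which encodes an RNA-binding protein of the nuclear ribonucleoproteins, had the window with the most used CpGs, 94, at chr7:50815001-50816000 in an exon. Bull1 had 325 of 863 reads methylated, or 37.7% (34.4 to 41.0%), and Bull2 had 1 of 712, or 0.140% (0.00356 to 0.780%). Bull1 was higher at 92 CpGs, and 27 passed an unadjusted Fisher exact p of 0.05. A CpG of this window had 0 to 7 methylated reads in Bull1, with a median of 3, at a depth of 5 to 14 reads, against 5 to 13 reads in Bull2. The flanks were near 0 in both bulls, 1.05% and 3.07%. The window's difference was 37.5 points, and 38.9 with equal weights. It was 40 over the 9 CpGs with 10 or more reads in both libraries and 39.0 with CpGs of 1 or more reads.

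GFAP, the intermediate filament protein of astrocytes, had the second largest difference of all, at chr19:45246001-45247000 in exon and intron. The levels were 68.7% (672 of 978 reads) in Bull1 and 8.39% (27 of 322) in Bull2. Depth was uneven along the window. Between 80 and 320 bp from its start, 20 CpGs had a median of 34.5 reads and up to 49 in Bull1, against 7 and up to 10 in Bull2, with levels of 79.9% and 5.63%. From 320 bp on, the 24 used CpGs had medians of 11 and 6 reads and levels of 44.0% and 11.9%. With equal weights the difference of the window was 45.8 points, and it was 85.9 over the 3 CpGs with 10 or more reads in both libraries. The part of this depth in the difference was not tested.

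VIM, the intermediate filament vimentin of mesenchymal cells, had 75 used CpGs at chr13:31945001-31946000 (5′ UTR and exon), with 48.0% (581 of 1211) in Bull1 and 16.2% (121 of 747) in Bull2. Over the 30 CpGs with 10 or more reads in both libraries the difference was 6.67 points. None of those 30 lay in the first 400 bp, where Bull2 had at most 9 reads per used CpG. Over the first 400 bp the levels were 72.5% and 3.52%, from 400 to 700 bp 52.1% and 33.8%, and beyond 700 bp 1.37% and 1.04%. The methylated patch of Bull1 was thus wider than that of Bull2 and ended at the same place.

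C1QL1, a secreted protein of the complement C1q family that acts at synapses, had a pair of adjacent windows (exon and promoter). At chr19:45294001-45295000 the levels were 29.2% (193 of 660) and 4.08% (25 of 612), and at chr19:45295001-45296000 they were 56.7% (246 of 434) and 0.307% (1 of 326). In the first window, both bulls were low over the first 800 bp, 6.20% and 5.70%, and Bull1 was at 61.9% and Bull2 at 1.33% in the last 200 bp. In the second, 34 CpGs between 400 and 620 bp were at 68.8% in Bull1 and at 0 of 231 reads in Bull2, and beyond 620 bp no read was methylated in either library. In the first 400 bp of the second window 1 of 44 CpGs could be used. Over all 44, whatever their depth, 71.5% of 421 reads were methylated in Bull1 and 2.27% of 88 in Bull2. Over CpGs with 10 or more reads in both libraries the difference was 47.7 points in the first window (11 CpGs) and 0 in the second (3 CpGs). Those 3 CpGs lay beyond 620 bp, since before it Bull2 had at most 8 reads per used CpG. With equal weights the first window was at 21.2 points.

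**Figure D5:**
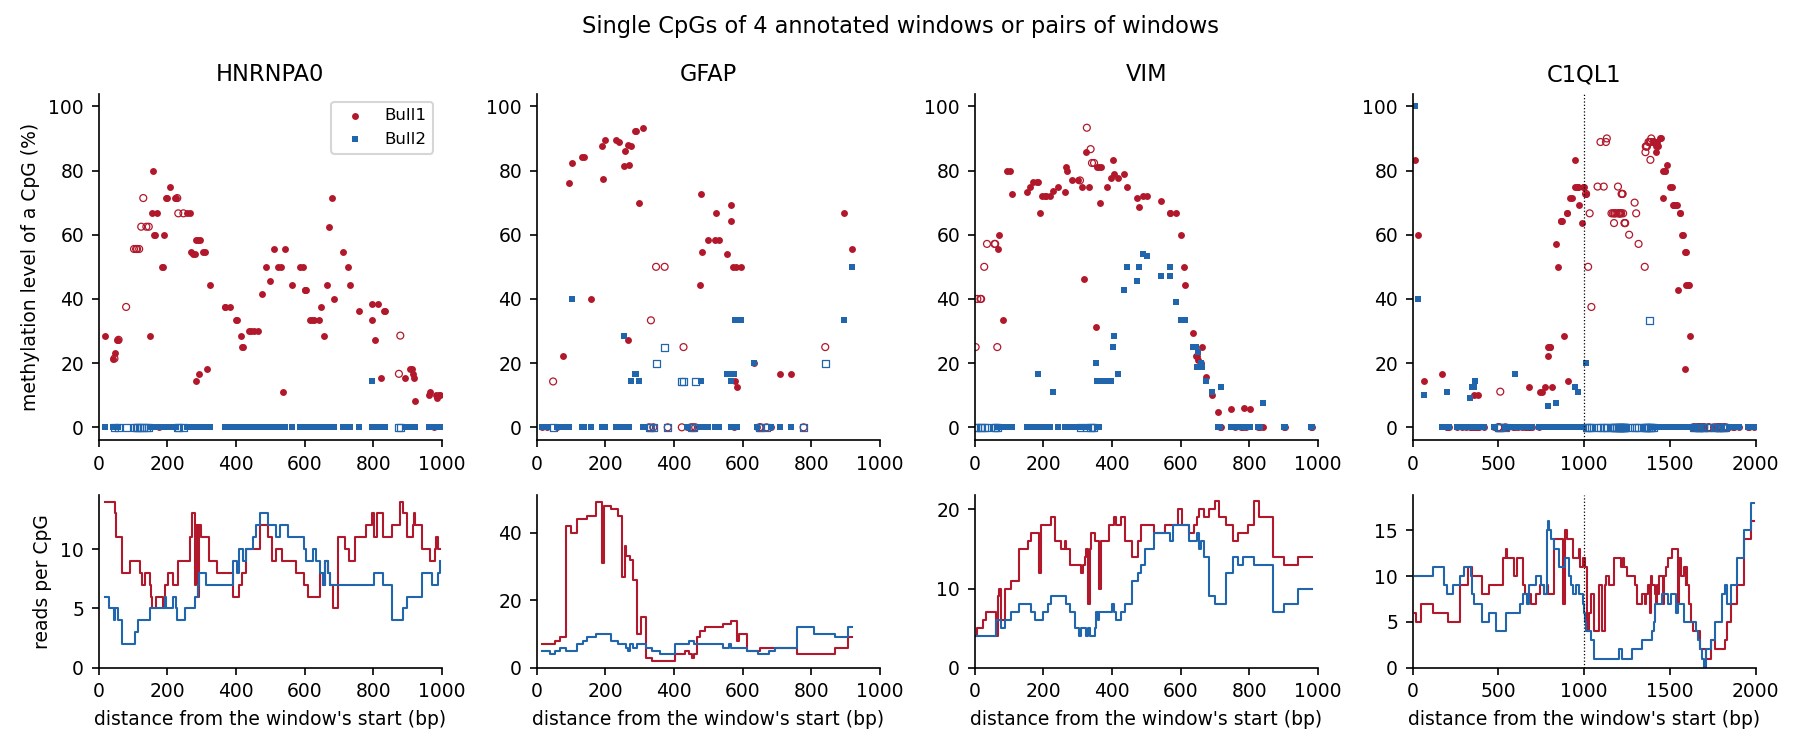
Methylation level of every CpG (top, %) and reads per CpG (bottom, scale differs between panels) by distance from the window's start in bp, for Bull1 and Bull2, in HNRNPA0, GFAP, VIM and the C1QL1 pair, whose border is dotted. Filled symbols are CpGs with at least 5 reads in both libraries, and open symbols the others. In GFAP, VIM and C1QL1 Bull1 is high over part of the window, in HNRNPA0 it is higher at 92 of 94 used CpGs, and at GFAP its depth reaches 49 reads where Bull2 stays at 10 or less.

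SOX2, a factor of pluripotent and neural progenitor cells, had 42.9% (261 of 609) in Bull1 and 1.72% (7 of 408) in Bull2 at chr1:85933001-85934000 in its exon, and all 43 used CpGs were higher in Bull1. At FOXA2, a forkhead factor of endoderm, the levels at chr13:41911001-41912000 were 28.1% (50 of 178) and 0.654% (1 of 153). At GSX1, a homeobox factor of the developing brain, chr12:32446001-32447000 had 28.5% (121 of 424) and 2.11% (8 of 379). Over CpGs with 10 or more reads in both libraries, the difference at SOX2 was 16.6 points (6 CpGs) and at GSX1 -3.52 points (4 CpGs). Those 6 CpGs lay in the first 300 bp of the SOX2 window, where the levels were 21.1% in Bull1 and 3.01% in Bull2. From 700 bp on the levels were 64.4% and 0.826%, and Bull2 had at most 9 reads per used CpG there. At FOXA2 the difference was 18.6 points when CpGs with 1 or more reads counted, and with Bull1 thinned to the depth of Bull2 it was 22.2 at FOXA2 and 24.8 at GSX1.

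At BCAN, which encodes the brain proteoglycan brevican, the levels at chr3:14236001-14237000 were 48.5% (407 of 840) and 1.14% (6 of 527), with 47 of 60 CpGs higher in Bull1. DRD5, a dopamine receptor, had 36.1% (82 of 227) and 2.73% (6 of 220) at chr6:107575001-107576000 in exon and promoter. At RHOB, a small GTPase, chr11:78466001-78467000 had 36.1% in Bull1 and 5.01% in Bull2, and 34 of 62 CpGs were higher in Bull1. The window before it carried no symbol and had 36.2% and 1.53%. PHLDA1 (chr5:5559001-5560000), a pleckstrin-like protein, had 31.0% (173 of 558) against 0.200% (1 of 501). Over CpGs with 10 or more reads in both libraries, the difference was 18.7 points at BCAN (13 CpGs) and 14.6 at PHLDA1 (7 CpGs). At IER5L, an immediate early response gene, chr11:99645001-99646000 had 46.3% and 5.60%, at 5.26 and 5.43 reads per CpG. CDK13, a kinase of transcription elongation, had the lowest Bull1 level of the 935 windows, 25.9% (79 of 305) against 1 of 283 reads, at chr4:81807001-81808000. With equal weights the difference was 21.5 points at RHOB and 23.9 at CDK13, and with CpGs of 1 or more reads it was 22.2 at DRD5.

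RTN1, a reticulon of neuroendocrine cells, had 46.3% and 19.8% at chr10:72224001-72225000, where 16 of 26 CpGs were higher in Bull1 and the equal-weight difference was 13.5 points. RIMBP2, a protein of the presynaptic active zone, had 44.1% and 17.1% at chr17:47674001-47675000, and FBXL15, a subunit of a ubiquitin ligase, 29.5% and 3.04% at chr26:22918001-22919000. The promoter of bta-mir-2474, a microRNA, had 34.3% and 0.704% at chr8:62601001-62602000, and no single CpG passed the unadjusted exact test there. With 10 or more reads in both libraries, the difference was 14.8 points at RTN1 (9 CpGs) and 12.4 at bta-mir-2474 (7 CpGs). Windows of under 20 CpGs were named at FMNL2, a formin of the actin cytoskeleton, with 18 of 63 reads methylated in Bull1 and 0 of 100 in Bull2, and at PLXND1, a semaphorin receptor, with 31.7% and 0 of 126 reads. SLC7A4, of a family of amino acid carriers, had 31 of 40 and 15 of 49 reads methylated in its promoter, and ADGRG3, an adhesion receptor, 52 of 81 and 17 of 55 in an intron. These 4 windows had between 5.00 and 8.33 reads per CpG in either library. When CpGs with 1 or more reads in both libraries counted, the difference went from 28.6 to 17.0 points at FMNL2 and from 33.3 to 17.8 at ADGRG3, from 31.7 to 49.0 at PLXND1 and from 26.9 to 21.8 at RIMBP2.

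Genes with near-identical copies elsewhere in mammalian genomes need separate mention, because reads of copies may be placed at either. PABPC1, the cytoplasmic poly(A)-binding protein, had 56 of 131 reads methylated in Bull1 and 0 of 39 in Bull2 at chr14:65816001-65817000. There 7 of 99 listed CpGs could be used, and Bull1 was 3.36 times as deep. The window chr25:1522001-1523000, annotated to the ribosomal protein gene RPS2 and also to RNF151, ACA64 and SNORA64, had 56 of 207 against 2 of 208 reads, where 10 of 29 CpGs were higher in Bull1, and over the 2 CpGs with 10 or more reads in both libraries the difference was 3.15 points. With equal weights it was 22.7 points. HNRNPA0 belongs to a gene family as well. Assignment of reads among copies was not tested.

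The most CpG-rich window without a symbol, chr13:40231001-40232000, had 177 of 436 reads methylated in Bull1 (40.6%) and 0 of 444 in Bull2 (at most 0.827%), and 68 of 71 CpGs were higher in Bull1. Its coverage was 6.14 and 6.25 reads per CpG.

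The 30 CpG-rich windows with Bull2 at 20% or more had median levels of 71.9% and 43.0%, at 10.9 and 9.99 reads per CpG. INSL3, the Leydig cell hormone that guides descent of the testis, belonged to this class at chr7:5252001-5253000, with 86.1% (242 of 281) in Bull1 and 53.7% (158 of 294) in Bull2. The difference was 32.4 points with reads pooled and 42.4 with equal weights. This direction is that of the deposited names, with the doubt stated at the start. Its first 600 bp were at 86.1% and 89.3%, and the 23 used CpGs beyond were at 86.2% and 28.9%, at a median of 5 and 7 reads. Only the 8 CpGs of the first part had 10 or more reads in both libraries, and there the difference was -3.16 points. The study's bisulfite amplicon of this gene, chr7:5252653-5253047, begins where that change lies. Its primers, designed for bisulfite-converted DNA and given here to place the amplicon, were:
INSL3 forward: aggtttttagttggggtaggtaaag
INSL3 reverse: aaaaaccaaaacatacatacaaatcc

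CTBP2, a transcriptional corepressor, had 89.2% (157 of 176) and 56.0% (112 of 200) at chr26:44895001-44896000, with all 26 CpGs higher in Bull1. GLIS1, GBX1, CHPF and DMWD had windows of this class too, with Bull1 between 62.5 and 76.4% and Bull2 between 32.0 and 50%. Over CpGs with 10 or more reads in both libraries, the difference was 10.6 points at GLIS1 (6 CpGs), 11.9 at CHPF (5 CpGs) and 26.5 at GBX1 (10 CpGs). With CpGs of 1 or more reads it was 20.2 at GLIS1 and 22.8 at DMWD, and with equal weights 23.3 at GBX1. GLIS1 is a zinc finger factor, GBX1 a homeobox factor and CHPF an enzyme of chondroitin synthesis. At DMWD Bull1 had 5.24 reads per CpG and Bull2 9.18, and no CpG there passed the unadjusted exact test.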

How the data were processed

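WGBS libraries of sperm from Bull1 and Bull2 were compared, 1 each. Per the labels and the study's methods, the authors sheared DNA to fragments shorter than the flank distance used here, converted it with bisulfite and sequenced read pairs. The submitters' processing notes name FastQC 0.11.2, Trim Galore 0.4.0, Bismark and a Bowtie2 entry with version 0.14.5, and the build UMD3.1. The deposited files held, for each CpG, the count of methylated reads, of unmethylated reads and of both, as raw counts without normalization, and the fraction methylated that the authors computed from them. Both files listed the same 27203217 CpGs, and sums and fractions matched in every row within 1e-05. Whether strands were merged, and whether positions count from 0 or 1, is not given in the sources used here, and positions were taken as 1-based. Only the counts were used.

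Windows were built in python 3.11.15 (numpy 2.4.6, pandas 2.3.3), with exact Clopper-Pearson intervals from scipy 1.17.1. Single CpGs were compared by two-sided Fisher exact tests with Benjamini-Hochberg adjustment over all autosomal CpGs with 5 or more reads in both, tested on simulated data. With 1 library per bull such tests compare libraries. Differences of named windows were bounded by combining the exact limits. Members and lists were chosen with earlier results of these data known. Named windows were the 10 with the largest difference at 10 or more reads in both, the 5 largest of all, the 5 with the most CpGs, the longest chains, the 3 on either side of the limit, the INSL3 window and the chromosomes of highest and lowest share. Those with a gene symbol were added after seeing the values. Gene names came from the study's annotated regions, of which 31 with damaged bounds were left out. Imprinted and germ cell gene lists needed an annotation of the build and were not analysed here. Alternatives were other coverage and CpG minimums and maximums, shifted windows, equal weights, Bull1 thinned to the depth of Bull2, other limits and flanks.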

Additional observations from a re-analysis of the deposited data

Results flagged for a closer look

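The X chromosome was outside the comparison, which was limited to autosomes. Windows more than 25 points apart were found there in both directions. Of 78790 windows of X that met the same requirements, 284 (0.360%) were more than 25 points higher in Bull1 and 59 more than 25 points higher in Bull2. Median coverage on X was 12.8 reads per CpG in Bull1 and 11.3 in Bull2, lower than on the autosomes. On the autosomes, 935 of 1856975 windows (0.0504%) were that much higher in Bull1 and 112 in Bull2. The shares in both directions were thus higher on X. The part of coverage in the higher shares was not tested. Autosomal windows above the coverage maximum of 100 reads held none over 25 points in either direction, 0 of 4822.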

How the results depend on the processing

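No paired analysis was possible because a single library per bull leaves no replicates to pair. The number of windows more than 25 points higher in Bull1 was 935. It was 1626 with CpGs of 1 read or more and 533 with 10 or more, 2541 with 3 CpGs per window and 221 with 10, 282 with the limit moved up by the median difference, 22 above 40 points, and 3 with intervals from 1 CpG's worth of reads, an alternative chosen after seeing the data. Of the windows under equal weights, 838 in all, 453 were among the 935, and of those under 10 reads or more, 314 were. The count stayed within 1.5 times under no coverage maximum, a maximum of 30, shifted windows, equal weights, a thinned Bull1, non-overlapping intervals and a coverage ratio between 0.5 and 2 (added later).

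The share of windows with flanks over 10 points higher in Bull1, 10.8%, was 8.52% at 10 reads, 14.0% at 10 CpGs per window, 15.7% in the nearest kb, which a fragment can share with the window, and 8.11% in windows with 20 or more CpGs (added later). The share with coverage under 10 reads, 35.2%, was 61.1% with 1 read, 0 by construction with 10, 26.6% with 3 CpGs, 57.0% with 10 CpGs, 41.4% with equal weights and 45.0% with the limit moved up by the median. The share of CpGs at an unadjusted Fisher exact p of at most 0.05 and higher in Bull1, 20.8%, was 28.9% at 10 reads and 0.0333% after adjustment. Among the named windows, INSL3 was at -3.16 points and GSX1 at -3.52 when only CpGs with 10 or more reads counted, 8 and 4 CpGs. Of the 56 named windows, 37 had such CpGs and 19 had none. In 17 the difference stayed within its exact bounds and in 18 it moved beyond them, as it did in 10 with 1 read or more, 14 with equal weights and 0 with a thinned Bull1. At VIM, SOX2, INSL3 and the second C1QL1 window, the minimum of 10 reads left out the stretch with the largest difference. Otherwise the cause of these changes was not tested. Of the 75 windows with 20 or more CpGs, 58 (77.3%) had under 10 reads per CpG in a library, against 29.5% of all such eligible windows.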
